A study of Mus musculus with 12 samples.

Results

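The regions described here were 718 long stretches of DNA that carried acetylated lysine 27 of histone H3 (H3K27ac) in both replicates of cortical interneurons (CINs) and of which less than 50% was covered by acetylated stretches shared by the replicates of the other cortical cells. They were taken from cells of Gad67-GFP heterozygote pups at postnatal day 2, in which GFP placed in the Gad67 gene (Gad1) marks cells that make GABA. Both populations came from such pups, of either sex and of a mixed background outcrossed to CD-1, and so both carried 1 modified Gad1 allele. GFP-positive cells (CINs) and GFP-negative cells (non-CINs, in the main glutamatergic neurons and glia) were sorted from dissociated cerebral cortex, with tissue of several litters pooled in each sample. Native chromatin immunoprecipitation (ChIP), in which chromatin is not cross-linked, was performed with 2 replicates of each population for H3K27ac and for trimethylation of the same lysine (H3K27me3), which gave 8 lists of broad peaks, while 4 input samples entered through the authors' peak calling.

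Peaks 500 bp or less apart were joined within each H3K27ac list, and the base pairs shared by both CIN lists formed 35768 CIN stretches. Of these, 7767 were 1500 bp or longer. The 718 domains (9.24% of the long stretches) were chosen by 2 measured values, namely a length of at least 1500 bp and a cover of less than 50% by stretches shared by both non-CIN lists. Acetylation in these lists is therefore given as a description, with no test. The other 7049 long CIN stretches (long shared domains) and 629 long stretches chosen by the mirror rule in non-CINs (long non-CIN-biased domains, of 8096 long non-CIN stretches) served for comparison. At the cover limit, domains in Kif21a (49.9% covered) and Bmp2k (49.9%) lay just inside, and a stretch whose nearest protein-coding start was that of Tarbp1 (50% covered) and the promoter stretch of Faxc (50.6%) lay just outside. At the length limit, domains at Csf2ra (1500 bp) and Mir7045 (1501 bp) lay just inside, and stretches in Elavl4 and Lrrc8b (1499 bp each) just outside. The 4 H3K27ac lists held between 46040 and 62505 peaks. The H3K27me3 lists held 38158 and 36662 peaks in CINs and 45081 and 42575 in non-CINs. Both non-CIN lists of H3K27me3 were thus the larger, and cover was not adjusted for the number of peaks. The lists hold calls and no read counts, so depth is unknown, and where no peak is given none passed the authors' calling threshold.

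H3K27ac is laid down by the acetyltransferases CBP and p300 and marks active promoters and enhancers, and long acetylated domains are known from genes that set the identity of a cell type. H3K27me3 is laid down by the Polycomb repressive complex and is found at silent or poised developmental genes. A histone tail cannot carry both marks on the same lysine at the same time. CINs are born in the ganglionic eminences of the ventral forebrain, where the DLX homeodomain factors start the GABAergic programme, and migrate into the cortex before birth.

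Windows of 200 bp from 8 of the longest domains show the sequence that was acetylated in both CIN lists. They are printed 5′ to 3′ on the plus strand of mm10 (RefSeq sequence of GRCm38.p6), in lower case with 3 cores in capitals on either strand: the homeodomain (DLX) core TAATTA, the SOX core CTTTGT and the MEIS core CTGTCA. Each window is the one with the most DLX cores in its domain that holds no annotated exon and at most 10% of repeat-masked bases, so the cores in it were looked for. Dlx5/Dlx6 (chr6:6872391-6872590, between the genes), Dlx1/Dlx2 (chr2:71530565-71530764, in an intron), Gad2 (chr2:22626089-22626288, in an intron) and Sp9 (chr2:73279836-73280035, within the gene span) are shown because no non-CIN H3K27ac peak and all 4 H3K27me3 lists lay over the window. Tiam2 (chr17:3485911-3486110, in an intron) is shown because no non-CIN H3K27ac and no H3K27me3 peak lay over it. Myt1 (chr2:181764226-181764425) and Map1b (chr13:99444636-99444835), both in introns, are shown because both non-CIN lists covered the window with H3K27ac although less than 50% of the domain was shared. Cdca7l (chr12:117809712-117809911, in an intron) is shown because replicate 2 of both populations had H3K27me3 over the window and replicate 1 had none.
Dlx5/Dlx6: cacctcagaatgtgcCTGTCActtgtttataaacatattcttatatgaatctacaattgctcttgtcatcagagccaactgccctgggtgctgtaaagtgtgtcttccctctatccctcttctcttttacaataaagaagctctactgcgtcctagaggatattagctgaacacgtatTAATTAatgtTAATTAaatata
Dlx1/Dlx2: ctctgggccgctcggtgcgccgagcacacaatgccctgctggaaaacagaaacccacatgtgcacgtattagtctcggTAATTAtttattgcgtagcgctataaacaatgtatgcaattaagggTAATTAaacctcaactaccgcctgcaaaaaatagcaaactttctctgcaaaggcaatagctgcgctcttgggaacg
Gad2: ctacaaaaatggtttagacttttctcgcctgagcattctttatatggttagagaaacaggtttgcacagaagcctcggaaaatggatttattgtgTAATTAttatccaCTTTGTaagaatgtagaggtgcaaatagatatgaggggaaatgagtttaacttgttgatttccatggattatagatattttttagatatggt
Sp9: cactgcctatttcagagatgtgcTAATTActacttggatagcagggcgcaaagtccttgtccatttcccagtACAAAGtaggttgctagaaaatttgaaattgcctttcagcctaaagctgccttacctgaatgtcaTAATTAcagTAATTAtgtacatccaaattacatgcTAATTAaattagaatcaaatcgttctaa
Tiam2: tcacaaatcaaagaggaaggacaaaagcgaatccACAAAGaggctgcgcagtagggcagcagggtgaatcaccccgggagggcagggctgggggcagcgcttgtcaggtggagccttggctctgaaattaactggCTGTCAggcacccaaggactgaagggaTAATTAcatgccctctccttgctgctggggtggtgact
Myt1: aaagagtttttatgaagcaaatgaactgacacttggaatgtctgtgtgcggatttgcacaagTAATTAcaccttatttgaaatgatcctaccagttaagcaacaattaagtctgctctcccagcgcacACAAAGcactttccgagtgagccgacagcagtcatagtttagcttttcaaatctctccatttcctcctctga
Map1b: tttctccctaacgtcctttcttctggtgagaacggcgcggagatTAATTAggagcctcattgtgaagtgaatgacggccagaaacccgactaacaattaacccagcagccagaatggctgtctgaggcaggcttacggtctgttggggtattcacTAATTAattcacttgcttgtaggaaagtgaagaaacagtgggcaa
Cdca7l: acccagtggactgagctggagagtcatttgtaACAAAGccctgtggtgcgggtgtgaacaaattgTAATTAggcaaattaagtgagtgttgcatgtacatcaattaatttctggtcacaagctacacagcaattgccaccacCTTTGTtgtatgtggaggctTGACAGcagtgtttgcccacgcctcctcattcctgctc

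The 3 longest domains, and 6 of the 20 longest, lay at genes of the lists of GABAergic transcription factors and of GABA synthesis, packaging and uptake. Dlx5 and Dlx6, a pair of neighbouring homeobox genes needed for GABAergic differentiation, shared a domain of 26397 bp at chr6:6856331-6882727 (mm10) that also held the starts of the noncoding RNAs Dlx6os1 and Dlx6os2. In the CIN lists it belonged to merged stretches of 27999 bp (replicate 1) and 26397 bp (replicate 2). The strongest of its peaks had fold enrichments of 5.93 and 7.48 over input, at the 89.4 and 88.0 percentiles of those lists. Neither non-CIN list had a peak on it. Dlx1 and Dlx2, the earlier-acting homeobox pair, lay in a domain of 21683 bp at chr2:71525535-71547217, with merged stretches of 24369 and 21810 bp in CINs and no peak in non-CINs. Both DLX domains stood apart in length, since the second was 2.36 times as long as the domain that followed it. That was the domain of Gad2, which encodes the GABA-synthesizing enzyme GAD65, with 9199 bp at chr2:22619349-22628547. Non-CIN lists covered 2.34% and 7.09% of it, with peaks that did not overlap each other.

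**Figure D1:**
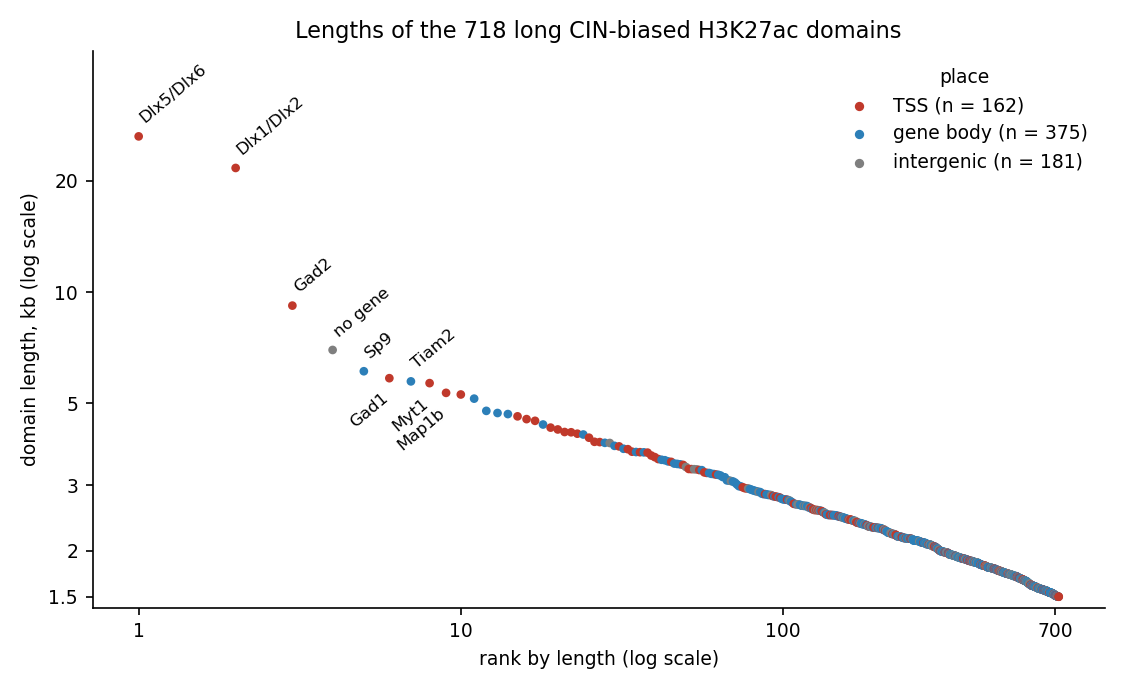
Length in kb (log scale) of each of the 718 domains against its rank by length (log scale), coloured by place: at a transcription start site (TSS), in a gene body or intergenic. The DLX domains (26397 and 21683 bp) lie above the remaining domains, whose lengths fall from 9199 bp to the minimum of 1500 bp.

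Sp9, which encodes a zinc finger factor of the GABAergic lineage, held a domain of 6112 bp at chr2:73274616-73280727 and a neighbour of 3303 bp over its start. Gad1, the gene of the enzyme GAD67, held domains of 5853 bp (chr2:70560338-70566190, over its start) and 2305 bp. Sp8, a relative of Sp9, held 4712 bp at chr12:118846631-118851342, which began 302 bp from its start. None of the domains at Sp8 and Sp9 had a non-CIN peak. Of the Gad1 domains, the longer had none and the shorter was covered to 9.50% and 0% by the non-CIN lists. Slc32a1, whose product loads GABA into vesicles, had a domain of 4121 bp that ended 454 bp from its start, within the noncoding gene Gm14204. The fourth longest domain (6978 bp) lay on an unplaced scaffold without an annotated gene. It was 99.9% covered by non-CIN list 2 and 0% by non-CIN list 1, so it counted as CIN-biased through the disagreement of those lists.

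The remaining domains among the 20 longest differed in how much of them was acetylated in non-CINs. Tiam2, which encodes an activator of the GTPase Rac, held 5738 bp at chr17:3481181-3486918, within the gene, outside its exons and 45636 bp from the nearest protein-coding start. It had no peak in either non-CIN list. Domains of 5676 bp at the start of Myt1 (a neuronal zinc finger factor) and 4253 bp at the start of Stmn1 (a regulator of microtubule turnover) were covered in part in non-CINs. So was a domain of 5342 bp within Map1b (a microtubule-associated protein), over an internal transcript start. For Myt1 the non-CIN lists covered 41% and 65.1%. For Map1b they covered 81.9% and 46.6%, and for Stmn1 40.2% and 67.0%. Each of the last 3 thus passed the 50% limit in a single non-CIN list and was kept because the lists shared less. The same held for Dpysl3, a collapsin response mediator (4615 bp, 63.1% and 44.9%), Igfbpl1 (4536 bp, 55.7% and 41.5%), Flrt2, a guidance receptor ligand (4488 bp, 69.4% and 32.6%), and Nrxn2, a presynaptic adhesion molecule (4386 bp, 80.3% and 48.1%). Lower cover was found at Rnf165 (5288 bp, 48.5% and 11.2%), Ccdc33/Stra6 (5153 bp, 34.0% and 22.4%), Map3k20 (4681 bp, 33.4% and 33.4%), Cdca7l (4775 bp, 6.20% and 0%) and the noncoding gene Gm38256 (4302 bp, 0% and 8.44%). Among the 20 longest domains 12 lay at a TSS, 10 had no stretch shared by the non-CIN lists and 6 were on chromosome 2.

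**Figure D2:**
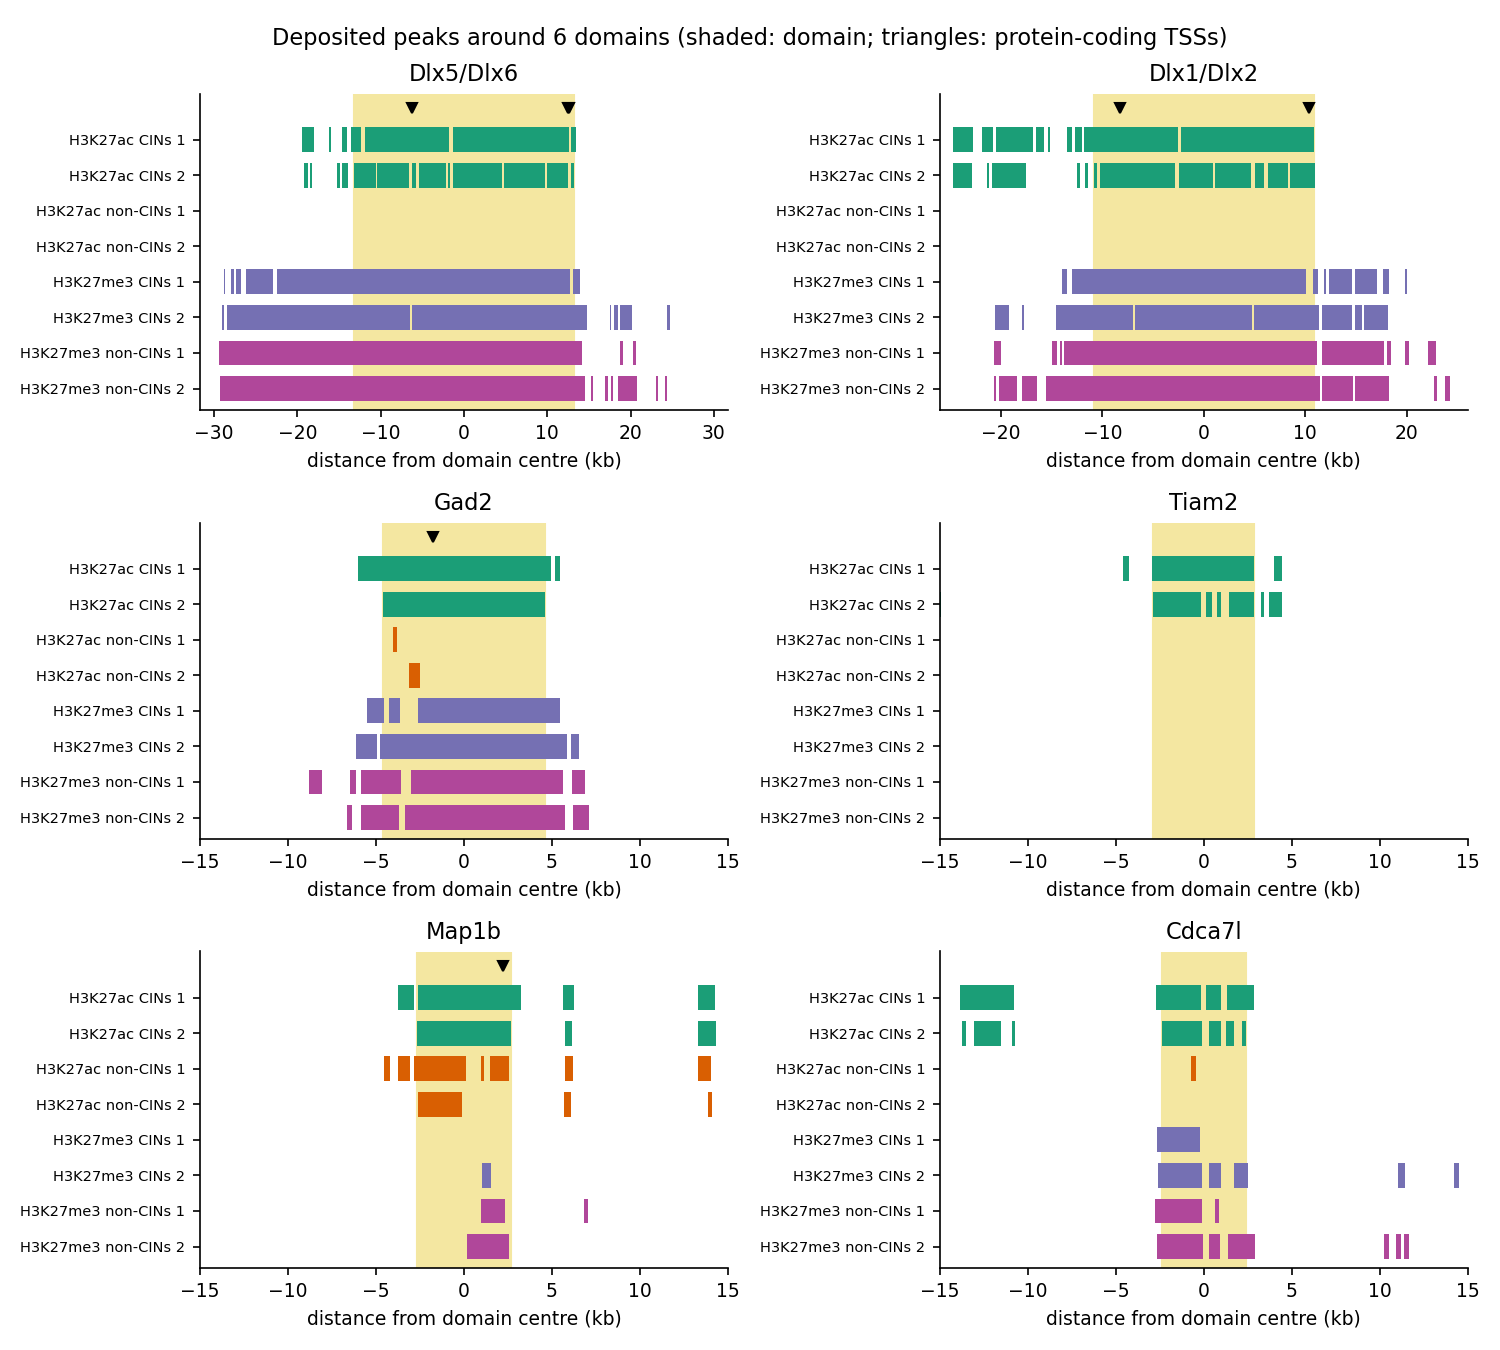
Peaks of the 8 lists, as deposited, around 6 domains; the horizontal axis is the distance from the domain's centre in kb, the shaded band is the domain and triangles mark protein-coding starts. The DLX domains carry H3K27me3 in all 4 lists and no non-CIN H3K27ac, Tiam2 carries CIN H3K27ac alone within its band, and Map1b carries non-CIN H3K27ac of unequal length in the replicates.

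Across all 718 domains the lengths were moderate. The middle 50% lay between 1687 and 2348 bp, the median was 1907 bp, 412 were under 2000 bp, 72 reached 3000 bp and 11 reached 5000 bp, and together they covered 1.59 Mb. Long shared domains had a median of 2022 bp. The shorter of the CIN lists set most lengths. In CIN list 1 the merged stretch was the longer for 646 of the 718 domains (median 2520 bp against 1950 bp in list 2). The number of domains depended on that list too, since CIN list 1 alone gave 3194 domains and CIN list 2 alone 921. With cover computed within each replicate number and below 50% in both, there were 425. The strongest peak of a domain lay at a median percentile of 83.5 in CIN list 1 and 71.4 in list 2, and those of long shared domains at 88.9 and 86.9.

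In non-CINs, 171 of the 718 domains (23.8%) had no H3K27ac peak in either list and 318 had no shared stretch. The median domain was covered to 28.4% by non-CIN list 1 and to 23.6% by list 2. In 293 domains at least 1 non-CIN list covered 50% or more (207 by list 1, 129 by list 2, with some counted in both). The 10 longest domains with no non-CIN peak were those of Dlx5/Dlx6, Dlx1/Dlx2, Sp9, Gad1, Tiam2, Sp8, Slc32a1, Metap1d (3771 bp, 9302 bp from the start of Dlx1), Celf4 (3688 bp), an RNA-binding splicing regulator, and Arid1b (3422 bp), a subunit of the BAF chromatin remodelling complex.

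**Figure D3:**
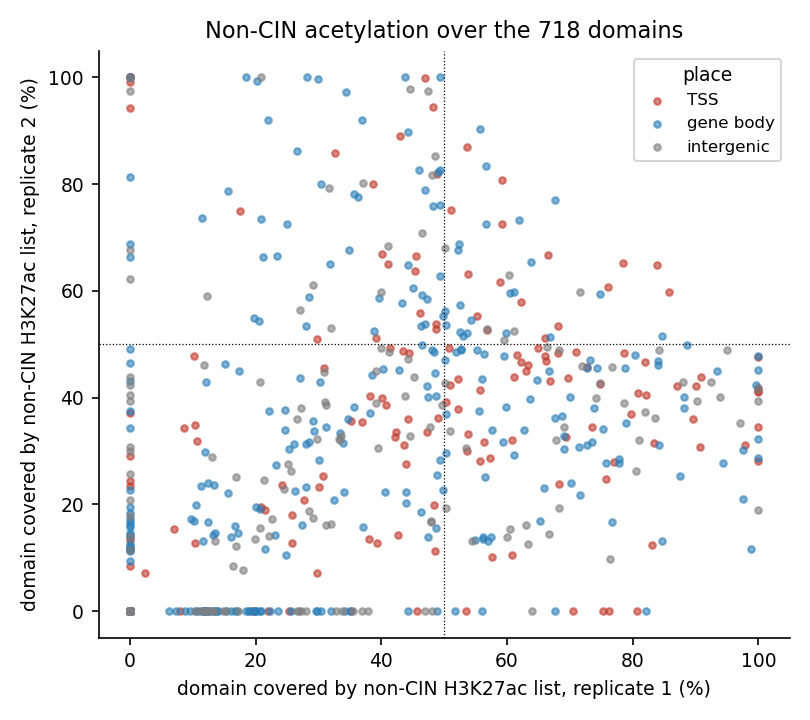
Percent of each domain covered by non-CIN H3K27ac list 1 (horizontal) and list 2 (vertical), coloured by place, with dotted lines at 50%; 171 domains lie on top of each other at 0% in both. Points beyond a dotted line (207 for list 1, 129 for list 2) were kept because the lists shared less than 50%.

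Genes were grouped by lists, and a gene counted when a domain lay between 5 kb upstream of its start and its end. Of all 21938 protein-coding genes, 432 (1.97%) held a domain, and since the rule used these lists, the counts are descriptions. Among 38 transcription factors of the GABAergic lineage, 15 (39.5%) held a domain, among them the 4 DLX genes, Sp8, Sp9, Sox6, Nr2f2, Zeb2, Meis2, Pbx3, Bcl11b, Nfib and St18. Outside the DLX and SP genes these were mostly intronic and of moderate length, and several of the genes also held a longer CIN stretch that non-CINs shared. Such stretches, named after their values were seen, measured 34705 bp in Meis2 (100% covered), 22744 bp in Nfib (98.1%), 14800 bp in Zeb2 (96.6%), 9193 bp in Sox6 (97.3%) and 3287 bp in Nr2f2 (83.0%). Zeb2, a zinc finger factor that directs interneurons to the cortex, had domains of 2892 and 2712 bp, and Bcl11b, another zinc finger factor, had 2162, 2047 and 1704 bp. St18, also a zinc finger factor, had a pair (2359 and 2156 bp) and no non-CIN peak on either. Sox6, a factor of maturing interneurons, had 1792 bp and no non-CIN peak. The homeodomain genes Meis2 and Pbx3 had 2097 and 1547 bp, the nuclear factor I gene Nfib 1991 bp and the nuclear receptor gene Nr2f2 1754 bp. These 4 had non-CIN peaks on them, and non-CIN list 2 covered 100% of the domain in Meis2. Of 7 genes of GABA synthesis, packaging and uptake, 4 held a domain: Gad1, Gad2, Slc32a1 and Abat (2899 bp), which encodes the enzyme that breaks GABA down.

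Factors without a domain fell into different states, and those named here were chosen after their values were seen. For 13 of the 38 the longest CIN stretch was long but shared with non-CINs, among them Nr2f1 (36431 bp, 96.4% covered) and Sox11 (8683 bp, 79.4% covered). Another 6 had short CIN stretches and 4 (Lhx6, Lhx8, Nkx2-1 and Gsx1) had none shared by the CIN lists. Of 25 subtype markers 1 held a domain, Nxph1 (1900 bp), and 18 had no shared CIN stretch, among them Sst, Npy, Pvalb and Vip. Of 27 migration and guidance genes 5 held a domain. They were Erbb4, the neuregulin receptor of migrating interneurons (1608 bp), Dcx, a microtubule-associated protein of migrating neurons (2048 bp at its start and 1856 bp within the gene), Lrp8, a reelin receptor (2429 bp), Plxna4, a semaphorin receptor (1525 bp), and Dcc, a netrin receptor (1938 bp). In Erbb4, Dcc and Lrp8 at least 1 non-CIN list covered over 50% of the domain.

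Markers of other cells were checked in the same way. None of 12 genes of astrocytes and radial glia, 7 of the oligodendrocyte lineage, 6 of microglia and 8 of endothelial cells and pericytes held a domain, and 10 of 15 markers of GABAergic interneurons did. Against the 1.97% of all protein-coding genes, a count of 0 in lists of this size is near the background. The rule leaves out what non-CINs share, and a gene without a domain was not without H3K27ac in CINs. A long CIN stretch covered to 50% or more in non-CINs lay at 11 of the 12 astrocyte and radial glia genes, 3 of the 7 oligodendrocyte genes, 2 of the 6 microglial and 2 of the 8 endothelial and pericyte genes. Examples, picked after their values were seen, were Pax6 (14030 bp), Slc1a3 (10467 bp) and Olig2 (5294 bp), each 100% covered. Of 17 markers of glutamatergic neurons, 2 held a CIN-biased domain (11.8%, against 1.97% of all protein-coding genes). They were Cux1 (1673 bp) and Foxp2 (2987 and 2165 bp), of which Foxp2 is a forkhead factor also made by GABAergic neurons of the ventral forebrain. Another 4 had a long CIN stretch covered to 50% or more in non-CINs. A list of 26 genes of the neuronal cytoskeleton and RNA binding, drawn up after the longest domains were seen, had 11 with a domain. These were Tubb3 (4040 bp), Stmn1, Map1b (5342 and 3255 bp), Map2 (2408 bp), Mapt (2160 bp), Dpysl3, Dpysl5 (2946 bp), Dcx, Elavl3 (2129 bp), Rbfox2 (2217 bp) and Celf4 (3688, 2809 and 1509 bp). These are genes of neurons in general, and glia were part of the non-CINs. The share of neurons in each sorted population was not measured by the lists, and its part in these domains was not tested.

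Some domains lay near each other. Within 100 kb, 188 domains (26.2%) formed 84 runs of at least 2. A neighbour of their class was found for 68.2% of long shared and 24.3% of long non-CIN-biased domains. Such a share rises with the number of domains in a class (718, 7049 and 629 here). It was not adjusted for that number, so it does not compare clustering with long shared domains. The longest runs had 4 domains, at Dlx1/Dlx2 with Metap1d and Hat1 (29096 bp of domain within 127771 bp), in the neurexin gene Nrxn3 (8702 bp within 144888 bp) and in the adhesion gene Dscaml1 (8072 bp within 129269 bp). Runs of 3 lay at Zmiz1, Mtss1, Myt1l, Rnd3, Mvb12b, Tcf4, Grip1, Bcl11b and Qk, among others.

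The place of the domains did not enter the rule, although it went with the cover that did, as given below. Of the 718, 162 (22.6%, 95% Wilson interval 19.7 to 25.8%) held a TSS of the GENCODE vM21 basic annotation, 375 (52.2%) lay in a gene body away from a TSS and 181 (25.2%) were intergenic. Long shared domains held a TSS in 4076 of 7049 (57.8%, 56.7 to 59.0%). CIN-biased domains were thus less often at a TSS (odds ratio 0.213, 95% interval 0.177 to 0.255, two-sided Fisher's exact test, adjusted p = 9.0e-75 over 2 comparisons). In domains of 1500 to 2500 bp the shares were 18.8% of 581 against 56.3% of 5121. Against long non-CIN-biased domains, 110 of 629 of which held a TSS (17.5%, 14.7 to 20.6%), the odds ratio was 1.38 (1.05 to 1.80, Fisher's exact test, adjusted p = 0.0209). This smaller difference turned around when non-CIN list 1 stood alone for the non-CINs (0.689, Fisher's exact test, adjusted p = 0.00352). It did not pass when CIN list 2 stood alone for the CINs (1.30, same exact test, adjusted p = 0.108). Across all alternatives it turned around in 2, did not pass in 5 and held in 9. Cover computed within each replicate number was among those that did not pass. Regions are not replicates of a condition, and these p values compare the classes of regions within these lists.

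Of the 162 domains at a TSS, 129 held one of a protein-coding gene. They were longer than those in gene bodies and between genes (medians 2156, 1903 and 1821 bp) and more of their length was shared with non-CINs (medians 28.2%, 5.81% and 5.41%). For 117 of them a shared non-CIN stretch covered a part, and in 59 of the 117 that part lay over a TSS. Domains without any non-CIN peak were at a TSS in 17 of 171 cases (9.94%). The odds ratio against long shared domains was 0.128 for the 318 domains with no shared non-CIN stretch. Of the 556 domains off TSSs, 470 held no exon. The 553 on assembled chromosomes lay a median of 62611 bp from the nearest protein-coding start, and 51 lay within 5 kb of it. For long shared domains the median distance was 39636 bp and for non-CIN-biased domains 31708 bp.

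**Figure D4:**
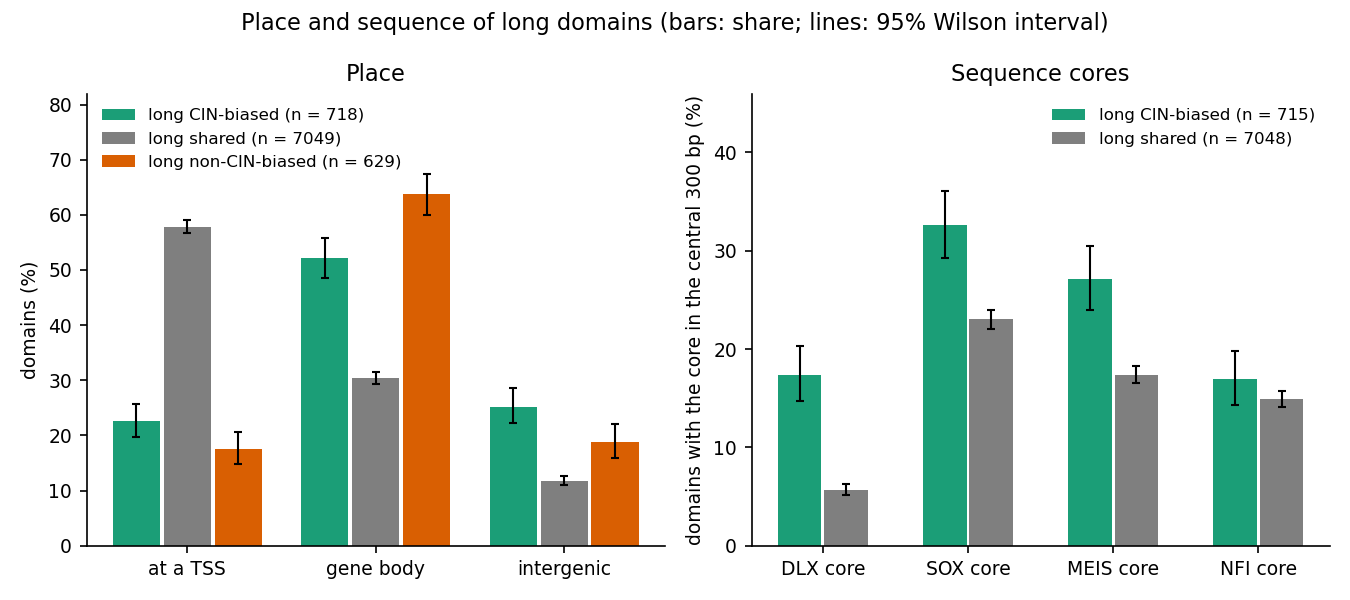
Left, percent of long CIN-biased, long shared and long non-CIN-biased domains at a TSS, in a gene body or intergenic; right, percent of domains with each sequence core in their central 300 bp. Bars are shares and lines are 95% Wilson intervals; 22.6% of CIN-biased and 57.8% of shared domains held a TSS, and the DLX core was found in 17.3% and 5.69%.

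H3K27me3 was measured apart from the acetylation that chose the domains. It lay over 73 and 118 of the 718 domains in CIN lists 1 and 2 and over 113 and 147 in non-CIN lists 1 and 2, and 559 (77.9%) had none in any list. By length, the CIN lists covered 9.12% and 13.3% of the domains' base pairs and the non-CIN lists 13.0% and 16.0%. The mean was 11.2% ± 2.95 (SD, n = 2) in CINs and 14.5% ± 2.11 (SD, n = 2) in non-CINs, a difference of 3.28 percentage points. Across replicates the populations overlapped, as non-CIN list 1 lay below CIN list 2, and the difference did not pass (exact permutation test, two-sided, p = 0.667, smallest possible 0.33). Within replicate numbers non-CINs were higher by 3.88 and 2.68 points (exact sign-flip test, p = 0.5, the smallest that 2 pairs allow). The 10 longest domains held a large part of the cover. Without them CINs had a cover of 4.73% and 9.03% and non-CINs one of 8.90% and 11.8%, a difference of 3.44 points. In the 162 domains at a TSS the cover was 21.6% and 27.2% in CINs against 29.2% and 31.6% in non-CINs. There the populations did not overlap (exact permutation p = 0.33, the smallest this design allows). In the 556 domains off TSSs it was 4.32% and 7.96% against 6.79% and 9.98%, which overlapped across replicates, with differences of 2.47 and 2.02 within replicate numbers.

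**Figure D5:**
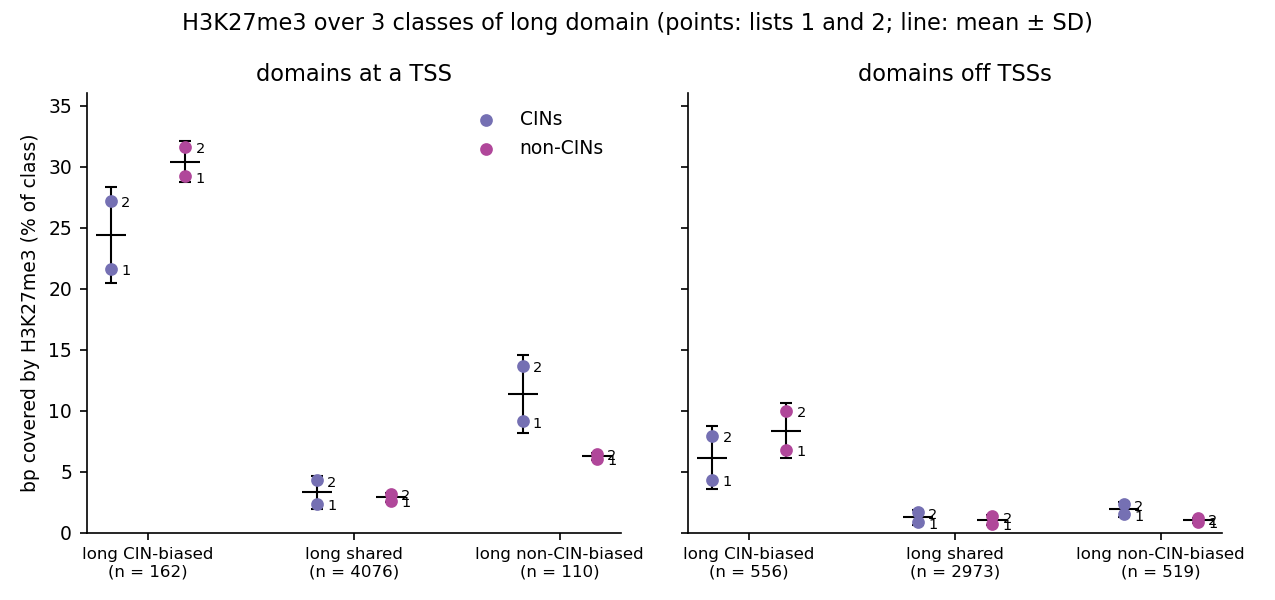
Percent of the base pairs of each class of domain covered by H3K27me3 in CIN and non-CIN lists, at a TSS (left) and off TSSs (right); points are lists 1 and 2, and lines the mean ± SD (n = 2). CIN-biased domains at a TSS reach 21.6 to 31.6%, and long shared domains at a TSS stay between 2.37 and 4.28%.

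More CIN-biased than long shared domains carried H3K27me3, in both populations. The rule's limit on non-CIN acetylation bears on the comparison in non-CINs. Stretches shared by both CIN lists of H3K27me3 touched 65 of 718 CIN-biased domains (9.05%, 95% Wilson interval 7.17 to 11.4%) and 171 of 7049 shared domains (2.43%, 2.09 to 2.81%), an odds ratio of 4.004 (2.98 to 5.39, Fisher's exact test, adjusted p = 1.4e-16 over 2 tests). Those shared by both non-CIN lists touched 96 (13.4%, 11.1 to 16.1%) and 152 (2.16%, 1.84 to 2.52%), an odds ratio of 7.00 (5.36 to 9.16, Fisher's exact test, adjusted p = 2.6e-37). The odds ratios were 8.02 and 14.1 among domains at a TSS and 3.97 and 6.42 among domains off TSSs. At a TSS, long non-CIN-biased domains carried shared H3K27me3 of CINs about as often as CIN-biased ones (19.1% and 20.4%, against 3.09% of long shared domains). Shared H3K27me3 of non-CINs was found at 9.09% of non-CIN-biased and 27.2% of CIN-biased domains at a TSS. These shares were not tested against each other. All 4 H3K27me3 lists had a peak on 66 domains (9.19%), against 2.32% of all long CIN stretches, and 33 of the 66 were at a TSS.

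In 18 domains all 4 H3K27me3 lists covered at least 80%. The share of all long CIN stretches that reach this limit is not given here, so the count is a description. They were the domains of Dlx5/Dlx6, Dlx1/Dlx2, Gad2, Sp8 and Nr2f2, both of Sp9 and of Gad1, and further ones at Myt1l, Vax1, Runx1t1, D030068K23Rik, St8sia3, Ly6c2, Gm14342 and Pnoc and on an unplaced scaffold. Dlx5/Dlx6, Sp8, the Sp9 pair, the Gad1 pair and Nr2f2 were covered to 100% in every list. Dlx1/Dlx2 was covered to 97.0% in CIN list 1 and to 100% in the other three, and Gad2 to 88.4% and 100% by the CIN lists and to 93.8% and 100% by the non-CIN lists. Cover cannot rise above 100%, so at such domains it shows no difference in the amount of H3K27me3 between the populations, and fully covered domains cannot enter the counts of separated covers given below. At these genes H3K27me3 was called in CINs, where H3K27ac was called over the same base pairs, as well as in non-CINs. The lists come from pooled cells, and whether both marks lay in the same cells, alleles or nucleosomes cannot be told apart. Of the 18, 11 had no non-CIN H3K27ac peak. Across all 171 domains with no non-CIN H3K27ac peak, 128 (74.9%) had no H3K27me3 in any list, among them Tiam2, Celf4 and Arid1b, and 17 (9.94%) had it in all 4. These shares were close to those over all 718 domains (77.9% and 9.19%). Intermediate cover was seen at 4 further domains, picked after their values were seen. In list order (CIN 1, CIN 2, non-CIN 1, non-CIN 2), H3K27me3 covered 79.6%, 99.7%, 84.9% and 100% of the domain beside Slc32a1 and 0%, 40.9%, 19.2% and 83.3% of that at Metap1d. For Cdca7l the values were 45.8%, 85.2%, 52.2% and 100%, and for Map3k20 20.2%, 88.1%, 86.9% and 100%. In each of these 4 domains replicate 2 had the higher cover within both populations.

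A difference between the populations was called more often in 1 direction. Both non-CIN lists covered more of the domain with H3K27me3 than both CIN lists in 39 of the 718 domains (5.43%), against 1.04% of all long CIN stretches. The reverse was found in 2 (0.279%), against 1.06%. Of the 39, 26 were at a TSS. In list order (CIN 1, CIN 2, non-CIN 1, non-CIN 2), the cover was 0%, 9.51%, 25.8% and 43.9% at Map1b. At Stmn1 it was 0%, 18.9%, 19.4% and 22.1%, and at Tubb3 52.4%, 56.4%, 79.4% and 79.0%. At the start of Myt1l, a neuronal zinc finger factor, a domain of 3410 bp, another than the one above, was covered to 22.5%, 70.3%, 100% and 100%. The domain over the host gene of the neuronal microRNA Mir124a-1 was covered to 58.3%, 86.5%, 100% and 100%, and that of Igfbpl1 to 24.2%, 60.1%, 76.0% and 85.2%. CIN list 2 stood nearer to the non-CIN lists than CIN list 1 at each of these 6, which were picked after their values were seen. The 2 domains with the reverse order were 1 at Pbx3 (70.2%, 61.5%, 58.7% and 38.8%) and 1 on an unplaced scaffold.

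On 6 domains H3K27me3 was called in each non-CIN list but in no CIN list (0.836%), against 0.245% of all long CIN stretches, and the opposite on none. The domains were at the starts of Scrt2 (2745 bp), a zinc finger repressor, Slco5a1 (2197 bp), Fam155a (1766 bp) and Gm17634 (1616 bp), and between genes with Gm26897 (1721 bp) and Grik3 (1505 bp) as the nearest protein-coding starts. Their cover in non-CIN lists 1 and 2 was 10.05% and 15.3% at Scrt2 and 96.3% and 46.3% at Fam155a. At Slco5a1 it was 59.4% and 30.3%, at Gm26897 23.8% and 12.2%, at Gm17634 12.4% and 11.9% and at Grik3 29.0% and 17.1%. At Scrt2, Slco5a1 and Gm17634 non-CINs also had shared H3K27ac over part of the domain (31.2%, 36.05% and 40.9%), and the remaining 3 had no non-CIN H3K27ac peak.

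Short sequence cores were counted in the central 300 bp of the 715 domains on assembled chromosomes and of 7048 long shared domains, on both strands. The DLX, SOX and MEIS cores were known from earlier results of these data to differ for regions acetylated in CINs only. Their tests therefore give no independent support. The DLX core (TAATTA, the homeodomain core) was found in 124 CIN-biased domains (17.3%, 95% Wilson interval 14.7 to 20.3%) and 401 shared domains (5.69%, 5.17 to 6.26%), an odds ratio of 3.48 (2.80 to 4.33, Fisher's exact test, adjusted p = 4.5e-24 over 4 cores). The MEIS core (CTGTCA) was found in 27.1% and 17.4% (odds ratio 1.77, same exact test, adjusted p = 1.8e-09) and the SOX core (CTTTGT) in 32.6% and 23.0% (1.62, adjusted p = 4.0e-08). The NFI core (TTGGCA) was found in 16.9% and 14.9% (1.16, 95% interval 0.945 to 1.43, same exact test, adjusted p = 0.155), which did not pass here but passed under 10 other settings of the rule or window. Across all CIN stretches of any length, 8.05% held the DLX core, 21.2% the MEIS core, 28.9% the SOX core and 19.4% the NFI core. Long non-CIN-biased domains held the DLX core in 7.63%, the MEIS core in 22.3%, the SOX core in 28.5% and the NFI core in 18.3%.

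These shares moved with base composition and place. CIN-biased domains had a median GC content of 46.6% and shared domains of 51.9%. Among domains off TSSs, whose median GC contents were 45.1% and 46.4%, the DLX core was found in 19.5% of CIN-biased and 9.89% of shared domains (odds ratio 2.21, Fisher's exact test, adjusted p = 3.6e-09). The MEIS core was found in 29.3% and 21.3% (1.53, same exact test, adjusted p = 1.3e-04). The SOX core (34.2% and 31.3%) did not pass there (1.14, same exact test, adjusted p = 0.179), nor did the NFI core (18.3% and 22.1%, 0.786, adjusted p = 0.0568). Among domains of at least 2500 bp none of the 4 cores passed (DLX 1.83, Fisher's exact test, adjusted p = 0.130). A core is 6 letters, is bound by many related proteins and is not a binding site.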

How the data were processed

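Native ChIP libraries of H3K27ac and H3K27me3 were made from sorted CINs and non-CINs (n = 2 each). As the authors describe, reads were aligned to mm10 with BWA (version 0.7.15 per the labels) and broad peaks were called for each replicate against its input with MACS2 (version 2.2.7 per the submitters' processing notes, while the study's methods name an earlier version). The deposited lists give, for each peak, a score, a fold enrichment over input, a −log10 p-value and a −log10 q-value, all from the authors' peak caller. Replicates were not pooled.

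Peaks up to 500 bp apart were merged, stretches were intersected between replicates, and a list's cover is the percent of a domain's base pairs in its merged stretches. Genes and TSSs were those of GENCODE vM21 and sequence that of RefSeq GRCm38.p6. A domain was assigned the genes with a TSS in it, otherwise those it lay in, otherwise the nearest protein-coding start. The genes named were those of the 20 longest domains, of the 10 longest without a non-CIN peak, of domains with H3K27me3 in both non-CIN lists alone, of domains at the limits, and of the gene lists, some of which are not reported here. Genes of the runs, of the domains with high H3K27me3 in all lists and of those where the populations' covers did not overlap fall outside this rule and were named after their values were seen. The domains, lists and cores were chosen with earlier results of these data known, so they give no independent support. Classes of domains were compared by two-sided Fisher's exact tests with Benjamini-Hochberg adjustment and populations by exact permutation tests (SciPy 1.17.1), whose p values measure the spread between these samples only. The interval steps were checked against bedtools 2.31.1 and on simulated data. No read counts were used, so the precision behind a peak is unknown. Wilson intervals cover counting error only. Merging gap, calling threshold, length, cover, replicates, TSS set, core window and gene window were varied. The inputs were not analysed here on their own.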

Additional observations from a re-analysis of the deposited data

Results flagged for a closer look

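The direction of the H3K27me3 difference was opposite in the domains biased to either population. In long CIN-biased domains, non-CINs minus CINs was 3.88 percentage points of base pairs in replicate 1 and 2.68 in replicate 2. In long non-CIN-biased domains it was -1.12 and -2.36. Both replicates of each biased class thus moved the same way within the class. In long shared domains the values were 0.11 and -0.80, which differ in sign. The biased classes come from mirror rules on acetylation of the same lysine, so the opposite signs cannot be told apart from that choice. The difference between the classes was not tested.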

How the results depend on the processing

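The number of CIN-biased domains (718) followed the rule's limits. It was 1956 with a length minimum of 1000 bp, 137 with 2500 bp, 455 with a cover of at most 25%, 318 with no cover and 403 with base pairs of either non-CIN list. Leaving out each H3K27ac list in turn gave 511 to 3194, the highest without CIN replicate 2. With a replicate block, where cover was computed within each replicate number and had to stay below 50% in both, it was 425. Whether samples with the same number came from the same sort is not given in the sources used here, and 2 pairs do not settle it. Deviations of samples with the same number had a correlation of 0.460 for H3K27me3, computed over long CIN stretches. For H3K27ac it was -0.0174, computed over the 70270 regions of any acetylation list, so the values rest on unlike sets. Under the block the H3K27me3 difference was 3.28 (exact sign-flip test, p = 0.5).

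The TSS comparison with long shared domains and both H3K27me3 comparisons with them kept direction and side of the threshold under every alternative run. The H3K27me3 difference between populations over all domains (3.28) ranged from 1.196 to 5.37 under the alternatives and passed in none that gave a p, a threshold this design cannot reach. It was 6 at TSSs and 2.24 off TSSs. Against non-CIN-biased domains, the TSS odds ratio was 1.54 at a cover of 25%, 1.80 with either list, 1.36 with the replicate block and 1.38 for 1500 to 2500 bp, none of which passed. It turned to 0.769 with no cover. Leaving out lists gave 0.689 to 2.096. The DLX odds ratio did not pass at 2500 bp (1.83), nor did SOX (1.30) and MEIS (1.24). SOX did not pass off TSSs (1.14) or at 40 to 50% GC (1.22). NFI passed with a −log10 q of at least 4 (1.33), 1000 bp (1.51), a cover of 25% (1.39), no cover (1.36), either list (1.397), the replicate block (1.41) and a core window of 1000 bp (1.31). Leaving out lists gave 1.17 to 1.35 and passed without CIN replicate 2 (1.35) and without either non-CIN replicate (1.256 and 1.30). NFI turned to 0.786 off TSSs and 0.868 at 40 to 50% GC. Subtype markers with a domain went from 1 to 2 within 50 kb. The causes were not tested. Another 4 alternatives were added after the data were seen: assembled chromosomes, without the 10 longest domains, domains by TSS, and 1500 to 2500 bp.

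Of the 20 longest domains, those of Dlx5/Dlx6, Dlx1/Dlx2, Gad2, Sp9, Gad1, Tiam2, Cdca7l, Sp8 and Gm38256 held a domain under all 13 alternatives, and Stmn1 under 6. With 2 lists per population, the smallest p between populations is 0.33.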
